A study of Mus musculus with 24 samples.

Results

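Genes of glycolysis and of the hypoxia response were followed in the mandibular prominence, the paired facial bud that gives rise to the lower jaw, of p63-deficient mouse embryos. The set comprised 10 genes: Slc2a1, Hk2, Pfkl, Aldoa, Pgk1, Eno1, Ldha, Pdk1, Bnip3 and Vegfa. They were chosen by symbol as genes of these pathways, with earlier results of these data known. Every array probe annotated to one of the symbols was used, the brightest probe of a gene first and its other probes as a check. Of the 10 genes, 8 had at least 1 of 14 probes among the 45281 probes of the array, and 7 were measured, that is, detected above background often enough to be tested among 12698 genes in all. No probe was annotated to Hk2 or Eno1. The Bnip3 probe was detected on 1 of 24 arrays.

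Total RNA of single mandibular prominences was hybridised to 24 one-colour bead arrays, 1 embryo per array, in 8 groups of 3. The groups were p63-/- embryos at E10, E11, E12 and E13 (embryonic days 10 to 13) and their p63+/- littermates at E10, E11, E12 and E13, each group drawn from 3 litters. Every embryo carried the targeted germline allele of the B6.129S7-Trp63tm2Brd/J strain, on both copies of the gene in p63-/- and on 1 copy in p63+/-, so p63-/- was compared with heterozygous and not with wild-type tissue. The labels name no treatment, and the RNA came from the whole prominence, not from sorted cells.

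As background, glycolysis splits glucose into pyruvate in the cytosol, and lactate dehydrogenase turns pyruvate into lactate, which lets the pathway run with little oxygen. When oxygen is short, the HIF-alpha proteins escape degradation, pair with ARNT and bind a short DNA core upstream of glycolytic enzyme genes, glucose transporter genes and Vegfa. Early mouse embryos rely strongly on glycolysis, and p63, encoded by Trp63, is a DNA-binding regulator required for the skin and other layered epithelia.

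Between 43.35% and 48.98% of probes were detected per array, and values are normalized log2 intensities, on which a difference of 1 is a 2-fold change. Trp63 averaged 9.23 to 9.60 in the 4 p63-/- groups and 10.43 to 11.06 in the 4 p63+/- groups. All 8 jaw mesenchyme markers checked, among them Hand2 and Dlx5, were measured. Of 10 epithelial markers 9 were measured, and Epcam was not detected often enough. A pair of p63-/- arrays stood apart from the other 5 arrays of their stage. E10 p63-/- replicate 3 carried genes of the visceral yolk sac endoderm (Afp at 13.77, against 4.94 to 8.33 on the other E10 arrays), and E12 p63-/- replicate 2 carried Tac2 (10.89, against 4.81 to 5.51) and Upk3b (10.79, against 4.78 to 5.32). The 6 arrays of each stage shared 1 slide, so stage and slide cannot be told apart in any stage comparison.

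The upstream DNA of the genes is shown because the hypoxia response has a known DNA core. Whether that core has a part in their stage differences was not tested. The core searched was ACGTG or GCGTG, read on both strands, so that CACGT and CACGC also count and the palindrome CACGTG counts as 2 overlapping copies. The lines give, for the outermost RefSeq start of each measured gene, the 250 bases before it on the gene's own strand, 5′ to 3′, from the RefSeq promoter table of build GRCm38.p6, with each core in capitals.
Slc2a1 (chr4:119108495-119108744, + strand): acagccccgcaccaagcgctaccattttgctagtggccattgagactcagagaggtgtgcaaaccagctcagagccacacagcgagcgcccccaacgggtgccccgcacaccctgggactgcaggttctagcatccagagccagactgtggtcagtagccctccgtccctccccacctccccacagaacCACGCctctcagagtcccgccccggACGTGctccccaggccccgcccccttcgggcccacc
Pfkl (chr10:78009808-78010057, - strand): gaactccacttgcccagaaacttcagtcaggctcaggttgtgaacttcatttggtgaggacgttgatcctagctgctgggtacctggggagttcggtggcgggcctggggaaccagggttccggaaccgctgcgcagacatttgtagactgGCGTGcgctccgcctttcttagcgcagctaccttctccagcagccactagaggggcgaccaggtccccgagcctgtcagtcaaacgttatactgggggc
Aldoa (chr7:126800448-126800697, - strand): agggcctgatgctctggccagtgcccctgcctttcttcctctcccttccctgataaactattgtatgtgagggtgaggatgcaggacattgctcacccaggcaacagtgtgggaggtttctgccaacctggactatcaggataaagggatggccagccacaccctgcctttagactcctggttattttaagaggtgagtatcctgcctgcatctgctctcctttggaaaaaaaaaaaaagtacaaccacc
Pgk1 (chrX:106186850-106187099, + strand): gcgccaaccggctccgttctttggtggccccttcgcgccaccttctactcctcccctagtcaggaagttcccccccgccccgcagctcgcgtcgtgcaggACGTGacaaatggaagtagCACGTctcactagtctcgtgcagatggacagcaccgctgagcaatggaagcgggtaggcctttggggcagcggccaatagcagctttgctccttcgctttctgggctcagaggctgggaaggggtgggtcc
Ldha (chr7:46845554-46845803, + strand): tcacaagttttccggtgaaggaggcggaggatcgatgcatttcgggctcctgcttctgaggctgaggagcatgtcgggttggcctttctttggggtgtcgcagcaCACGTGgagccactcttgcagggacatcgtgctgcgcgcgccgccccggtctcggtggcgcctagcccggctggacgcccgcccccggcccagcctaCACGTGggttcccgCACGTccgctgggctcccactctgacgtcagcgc
Pdk1 (chr2:71872974-71873223, + strand): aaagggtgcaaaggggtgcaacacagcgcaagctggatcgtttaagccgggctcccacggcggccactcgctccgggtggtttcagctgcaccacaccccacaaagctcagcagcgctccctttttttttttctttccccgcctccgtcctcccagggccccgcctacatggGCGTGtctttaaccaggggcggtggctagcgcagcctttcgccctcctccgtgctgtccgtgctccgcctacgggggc
Vegfa (chr17:46032378-46032627, - strand): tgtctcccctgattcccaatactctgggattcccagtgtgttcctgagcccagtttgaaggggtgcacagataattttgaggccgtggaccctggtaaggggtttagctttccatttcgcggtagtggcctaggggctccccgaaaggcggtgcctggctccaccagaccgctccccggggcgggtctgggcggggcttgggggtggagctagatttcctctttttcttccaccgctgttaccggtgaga
Ldha had 5 copies, made up of a pair of CACGTG palindromes and 1 single core. Slc2a1 and Pgk1 had 2 copies each, Pfkl and Pdk1 had 1 each, and these windows of Aldoa and Vegfa had 0. The next annotated start of Aldoa had 1 copy. That of Vegfa had 2, in a window (chr17:46025164-46025413) that lies downstream of the outermost Vegfa start. All 10 genes were in the RefSeq table, with 17 windows, of which 14 held a core. These windows are not all separate stretches of DNA. Those of Aldoa starts 2 and 3 overlap and share 1 core. Those of Eno1 starts 2 and 3 overlap and share 2 cores, so some sites are counted more than once. A core was held by 38.6% of all 32851 windows, and among the 9178 windows with at least 60% G and C the share was 63.8%. A match describes the letters of a window and does not show that a factor binds there.

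**Figure D1:**
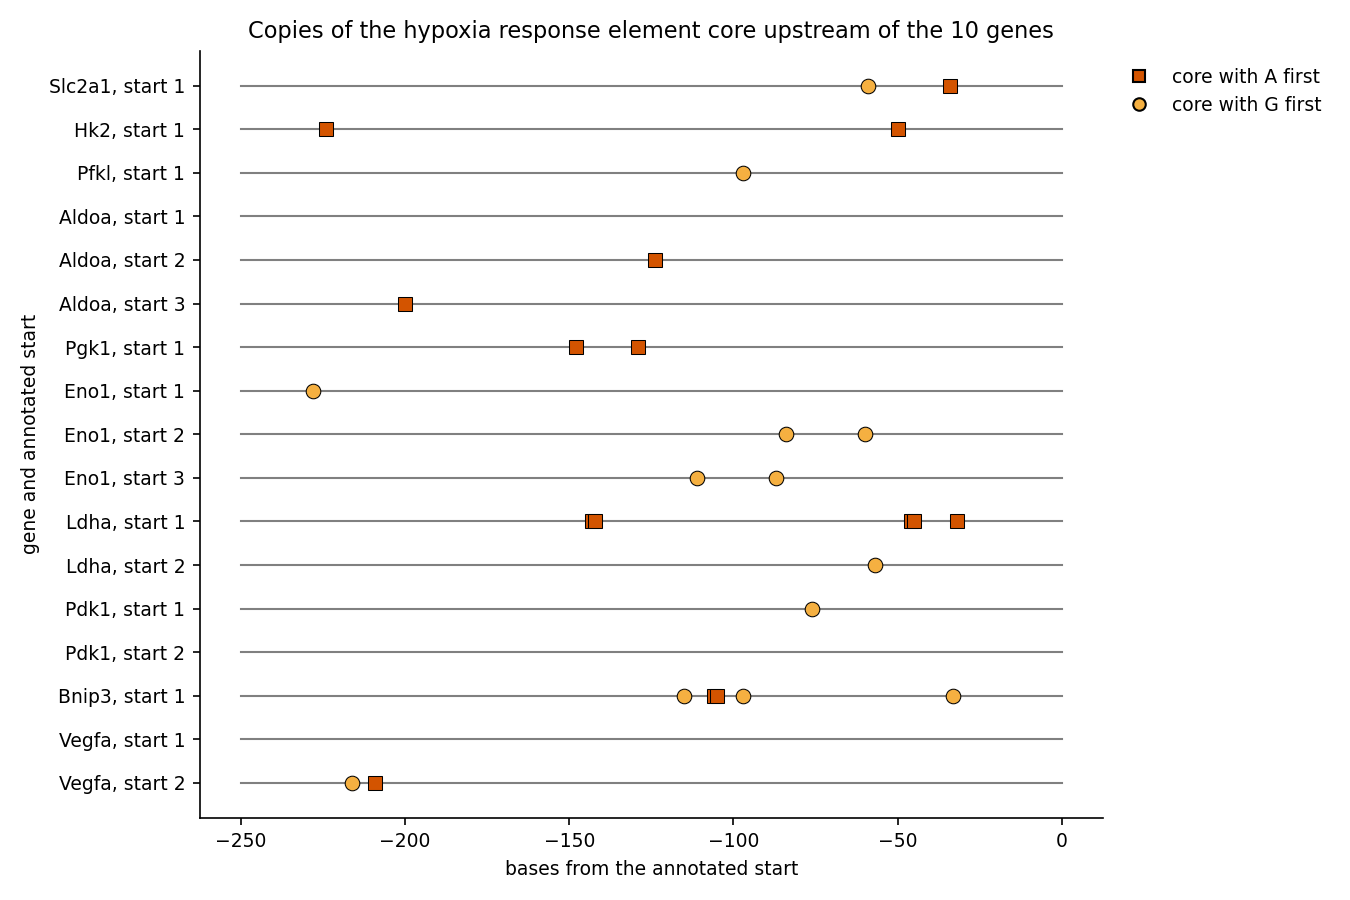
Position of each copy of the core, in bases from the annotated start, in the 250 bases upstream of every RefSeq start of the 10 genes. Squares mark ACGTG and circles GCGTG, on either strand. The outermost Ldha start and the Bnip3 start hold 5 copies each, and 3 of the 17 windows hold 0.

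The called differences of these genes lay between stages, which cannot be told apart from slides. By their brightest probes, 5 enzyme genes fell and Vegfa rose at E13 relative to E10 in both genotypes, while Slc2a1 did not pass the test in either. The brightest Pgk1 probe was 1.69-fold lower at E13 in p63-/-, a difference that no longer passed with its detected probes averaged (-0.27 on the log2 scale), and the rise of Vegfa was 1.59-fold in p63-/- and 1.76-fold in p63+/-. In p63-/- 6 of 7 genes passed an adjusted p of 0.05 (limma, Benjamini-Hochberg over 12698 genes), against 55.9% of all genes, and in p63+/- 6 of 7 passed, against 53.3%. By direction, 5 were lower against 28.5% of all genes in p63-/- and 28% in p63+/-, and 1 was higher against 27.4% and 25.3%. With both genotypes pooled, the 6 arrays of E13 did not overlap the 6 of E10 for these 6 genes, against 43.3% of all genes. Since the genes were chosen with earlier results of these data known, these shares describe the set and do not test it. The median difference over the 7 genes was -0.61 in p63-/- and -0.62 in p63+/-, against medians over all genes of -0.04 and -0.05. With arrays scaled to a common median in place of quantile normalization, the falls were larger, from -1.23 for Pgk1 to -0.78 for Pdk1 in p63-/- and from -1.12 for Ldha to -0.65 for Pdk1 in p63+/-. Vegfa was then at 0.44 in p63-/- and 0.62 in p63+/-, and the medians over all genes were -0.12 and -0.11. In bulk tissue, fewer cells of a type and less RNA per cell cannot be told apart.

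Aldoa encodes the aldolase that cleaves fructose bisphosphate. At E10, Aldoa read 13.07, 13.15 and 12.99 on p63-/- arrays, against 13.03, 12.96 and 12.99 on p63+/- arrays. At E11, Aldoa read 12.62, 12.82 and 12.54 in p63-/-, against 12.56, 12.70 and 12.49 in p63+/-. The 6 arrays of E11 all lay below the 6 of E10. At E12, Aldoa read 12.16, 12.16 and 12.47 in p63-/-, against 11.97, 12.01 and 11.97 in p63+/-. At E13, Aldoa read 12.16, 12.38 and 12.47 in p63-/-, against 12.30, 12.31 and 12.49 in p63+/-. The lowest stage was E12, and E13 overlapped E12 but not E10. Aldoa fell by 0.73 at E13 relative to E10 in p63-/- (SE 0.10, limma adjusted p = 8.8e-06) and by 0.63 in p63+/- (SE 0.10, adjusted p = 5.08e-05).

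Ldha encodes the A subunit of lactate dehydrogenase. At E10, Ldha read 14.62, 14.59 and 14.67 in p63-/-, against 14.49, 14.72 and 14.55 in p63+/-. At E11, Ldha read 14.22, 14.46 and 14.32 in p63-/-, against 14.21, 14.45 and 14.24 in p63+/-. Every E11 array was below every E10 array. At E12, Ldha read 13.87, 13.92 and 14.25 in p63-/-, against 13.88, 13.72 and 13.93 in p63+/-. At E13, Ldha read 13.99, 14.06 and 13.99 in p63-/-, against 13.77, 13.98 and 14.05 in p63+/-. The E12 and E13 arrays overlapped each other and lay below all E10 arrays, with E12 p63-/- replicate 3 the highest of those 12. Ldha fell by 0.61 at E13 relative to E10 in p63-/- (SE 0.11, limma adjusted p = 0.000101) and by 0.65 in p63+/- (SE 0.11, adjusted p = 5.92e-05).

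Pgk1 encodes phosphoglycerate kinase, the first ATP-forming step of glycolysis, and lies on the X chromosome. At E13, Pgk1 read 12.89, 13.06 and 13.09 in p63-/- and 13.04, 13.09 and 13.31 in p63+/-, against E10 values of 13.74, 13.88 and 13.69 in p63-/- and 13.86, 13.74 and 13.71 in p63+/-. The 2 stages did not overlap. Between them, the arrays of both genotypes ranged from 13.24 to 13.56 at E11 and from 12.87 to 13.36 at E12. Pgk1 fell by 0.75 in p63-/- (SE 0.11, limma adjusted p = 1.97e-05) and by 0.62 in p63+/- (SE 0.11, adjusted p = 0.000159).

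Pfkl encodes the liver-type phosphofructokinase, the enzyme that commits sugar to glycolysis. It averaged 12.37 ± 0.16 at E13 against 12.98 ± 0.15 at E10 in p63-/-, and 12.30 ± 0.17 at E13 against 12.98 ± 0.02 at E10 in p63+/- (SD, n = 3 arrays each). No E13 array reached the lowest E10 array, which read 12.82. Pfkl fell by 0.61 in p63-/- (SE 0.10, limma adjusted p = 6.96e-05) and by 0.68 in p63+/- (SE 0.10, adjusted p = 2.67e-05).

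Pdk1 encodes a pyruvate dehydrogenase kinase, which turns off the enzyme that feeds pyruvate to mitochondria, and it is a known HIF target. At E10, Pdk1 read 10.45, 10.67 and 10.24 in p63-/-, against 10.57, 10.43 and 10.39 in p63+/-. At E11, Pdk1 read 10.18, 10.23 and 9.83 in p63-/-, against 9.84, 10.27 and 9.96 in p63+/-. The highest E11 array overlapped the lowest E10 array. At E12, Pdk1 read 9.40, 9.53 and 9.79 in p63-/-, against 9.59, 9.27 and 9.43 in p63+/-. At E13, Pdk1 read 9.96, 10.08 and 9.50 in p63-/-, against 9.90, 10.07 and 9.98 in p63+/-. E12 was the low point, and 5 of the 6 E13 arrays lay above every E12 array, the exception being p63-/- replicate 3. Pdk1 fell by 0.61 at E13 relative to E10 in p63-/- (SE 0.16, limma adjusted p = 0.00318) and by 0.48 in p63+/- (SE 0.16, adjusted p = 0.0157). The p63+/- call was lost without p63+/- replicate 1 of E10 (-0.43) or of E13 (-0.44).

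Vegfa encodes the ligand that drives vessel growth through Flt1 and Kdr. At E10, Vegfa read 10.54, 10.41 and 10.27 in p63-/-, against 10.40, 10.16 and 10.29 in p63+/-. At E11, Vegfa read 10.76, 10.54 and 10.57 in p63-/-, against 10.52, 10.64 and 10.82 in p63+/-. The lowest E11 array lay just below the highest E10 array. At E12, Vegfa read 10.91, 10.80 and 10.91 in p63-/-, against 11.00, 10.94 and 10.82 in p63+/-. At E13, Vegfa read 11.39, 10.92 and 10.92 in p63-/-, against 11.04, 11.14 and 11.12 in p63+/-. All E12 and E13 arrays lay above all E10 arrays, and E13 p63-/- replicate 1 was the highest of the 24. Vegfa rose by 0.67 at E13 relative to E10 in p63-/- (SE 0.12, limma adjusted p = 9.6e-05) and by 0.82 in p63+/- (SE 0.12, adjusted p = 1.47e-05).

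Slc2a1 encodes GLUT1, the broadly expressed glucose transporter. At E10, Slc2a1 read 12.46, 12.73 and 13.29 in p63-/-, against 12.25, 12.35 and 12.26 in p63+/-. At E11, Slc2a1 read 12.17, 12.53 and 12.38 in p63-/-, against 12.17, 12.24 and 12.06 in p63+/-. The genotypes separated at E10 and overlapped at E11. At E12, Slc2a1 read 12.09, 13.43 and 12.06 in p63-/-, against 11.92, 11.94 and 12.10 in p63+/-. At E13, Slc2a1 read 12.50, 12.36 and 12.56 in p63-/-, against 11.97, 12.33 and 12.47 in p63+/-. The readings of 13.29 and 13.43 were the highest of the 24 and came from the p63-/- arrays that stood apart. At E13 relative to E10 Slc2a1 differed by -0.35 in p63-/- (95% interval -0.90 to 0.19, limma adjusted p = 0.257) and by -0.03 in p63+/- (-0.58 to 0.51, adjusted p = 0.928).

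**Figure D2:**
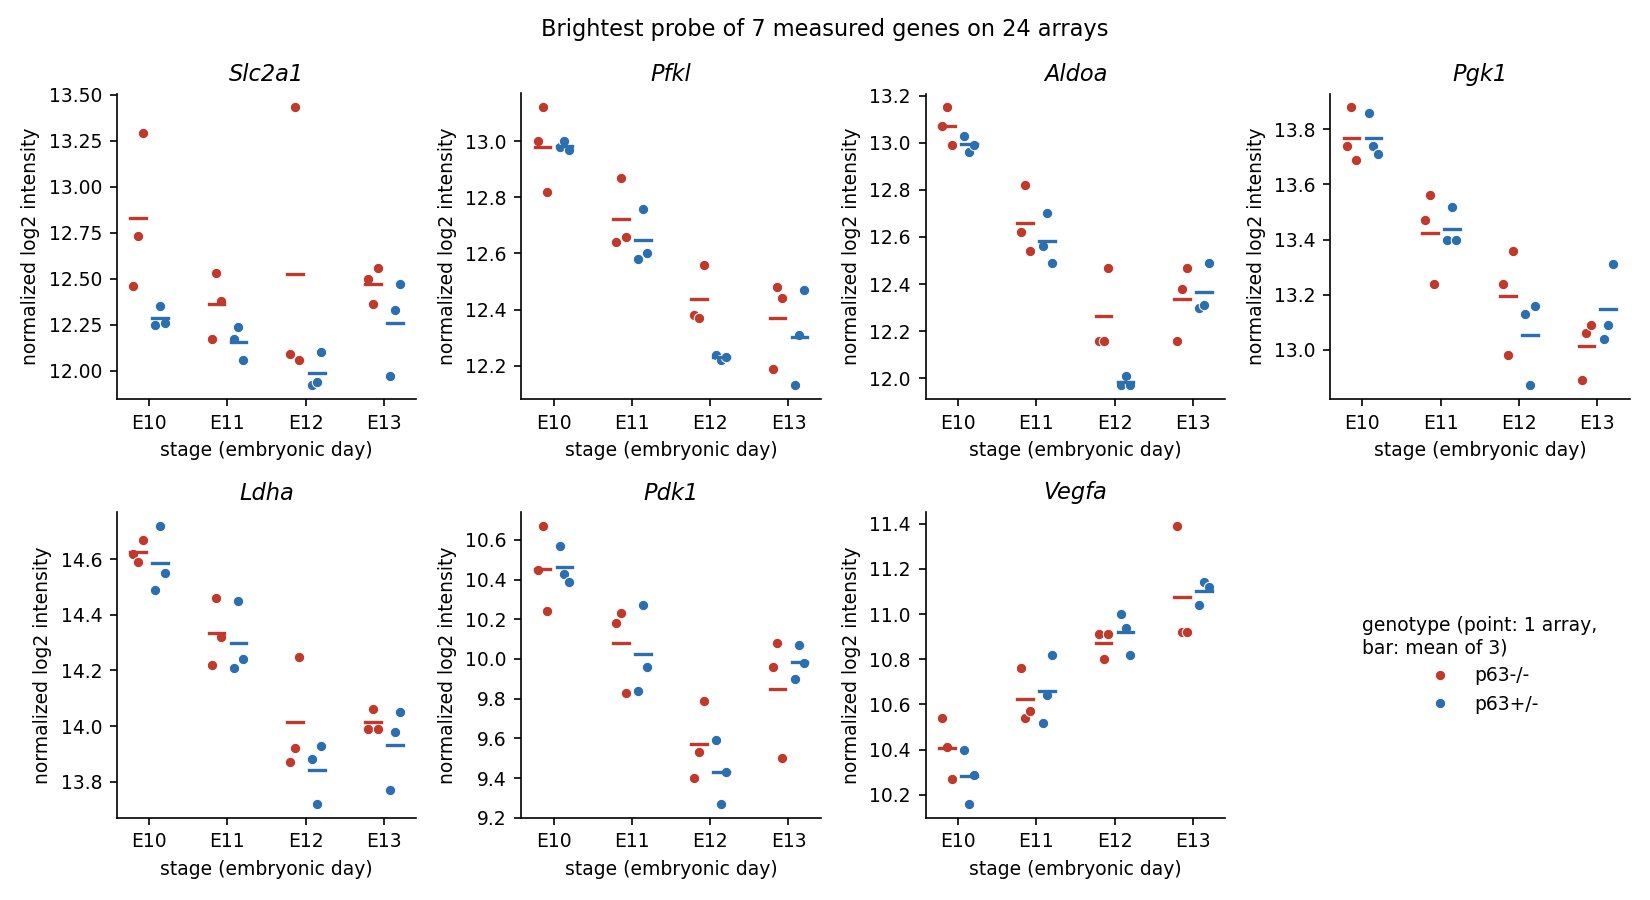
Normalized log2 intensity of the brightest probe of each of the 7 measured genes by stage, with p63-/- to the left of p63+/-. Points are single arrays, spread sideways by replicate, bars are means of 3, and each panel has its own axis. The 5 enzyme genes lie lower at E13 than at E10, Vegfa lies higher, and Slc2a1 has its highest points at 13.29 and 13.43 in p63-/-.

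The brightest probes of the 5 enzyme genes were lower at both steps up to E12, and that of Vegfa was higher. Over both genotypes, 6 of 7 genes passed between E10 and E11 (16.1% of all genes) and 6 of 7 between E11 and E12 (35.1%). Of all genes, 6.61% were called lower and 9.53% higher at the first step, and 18.1% and 17.1% at the second. That split over all genes depends on the scaling: 59.1% of the calls were higher at the first step, 48.6% at the second and 47.8% at the third, against 10.8%, 83.9% and 33.4% when arrays were scaled to a common median. The called differences of the 7 genes had the same sign under that scaling, but Vegfa between E10 and E11 was then at 0.04 and Aldoa between E12 and E13 at 0.06, and both no longer passed. Pfkl and Ldha, which did not pass between E12 and E13, were then at -0.15 and -0.12. The E11 minus E10 differences were -0.41 for Aldoa (limma adjusted p = 0.00144), -0.41 for Pdk1 (0.0201), -0.34 for Pgk1 (0.00868), -0.30 for Pfkl (0.0114), -0.29 for Ldha (0.0163) and 0.30 for Vegfa (0.0222). The E12 minus E11 differences were -0.55 for Pdk1 (limma adjusted p = 0.00149), -0.50 for Aldoa (0.000176), -0.39 for Ldha (0.00122), -0.35 for Pfkl (0.00171), -0.31 for Pgk1 (0.00725) and 0.26 for Vegfa (0.0241). Between E12 and E13, 2 of 7 passed, against 39.7% of all genes, and both were higher, against 19%. Pdk1 then rose by 0.41 (SE 0.11, limma adjusted p = 0.00735) and Aldoa rose by 0.23 (SE 0.07, adjusted p = 0.0187). The intervals of the other E13 minus E12 differences ran from -0.15 to 0.16 for Pfkl, -0.12 to 0.20 for Ldha, -0.21 to 0.13 for Pgk1, 0.02 to 0.37 for Vegfa (adjusted p = 0.0761) and -0.28 to 0.49 for Slc2a1. The early calls of Vegfa and Pdk1 were the least stable to leaving out 1 array. Between E10 and E11, Vegfa lost its call without E10 p63+/- replicate 2 (0.27), E11 p63-/- replicate 1 (0.26) or E11 p63+/- replicate 3 (0.26). Pdk1 lost it without E10 p63+/- replicate 1 (-0.38), and without 1 of 3 arrays of E11, namely p63-/- replicate 3 (-0.34) and p63+/- replicates 1 (-0.36) and 3 (-0.39). Ldha lost it without E10 p63+/- replicate 2 (-0.25). Between E11 and E12, Vegfa lost its call without E11 p63-/- replicate 2 (0.23), E11 p63+/- replicate 1 (0.22) or E12 p63+/- replicate 1 (0.24). Between E12 and E13, Aldoa lost its call without E12 p63-/- replicate 1 (0.20), Vegfa passed without E13 p63-/- replicate 2 or 3 (0.23 each), and Slc2a1 passed without E12 p63-/- replicate 2 (0.33).

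Second probes did not all follow the brightest one. The second Pfkl probe fell at E13 relative to E10, by 0.78 in p63-/- (limma adjusted p over all probes = 0.00692) and by 0.58 in p63+/- (0.0376). That probe was dim too, at 5.72 to 7.44. The second Vegfa probe differed by 0.28 in p63-/- (adjusted p = 0.0619) and rose by 0.57 in p63+/- (0.000616). The second Pdk1 probe went the other way from the first, rising by 0.82 in p63-/- (adjusted p = 0.00309) and by 0.62 in p63+/- (0.0194), but it was detected on 10 of 24 arrays, at 4.88 to 6.13. With the detected Pdk1 probes averaged, the stage difference was 0.11 in p63-/- and 0.07 in p63+/-. The second Pgk1 probe, at 6.38 to 7.84, differed by 0.22 in p63-/- (adjusted p = 0.398) and by -0.14 in p63+/- (0.604). By single steps the second probes also departed from the brightest ones. The second Vegfa probe differed by 0.04 between E10 and E11 (adjusted p = 0.795) and by 0.02 between E11 and E12 (0.848), and rose by 0.36 between E12 and E13 (0.00329). The second Pgk1 probe differed by 0.11 (adjusted p = 0.641), 0.29 (0.128) and -0.37 (0.058) at the 3 steps. The second Pfkl probe fell by 0.51 between E10 and E11 (adjusted p = 0.0372) and then differed by 0.18 (0.405) and -0.35 (0.094). With detected probes averaged, Pgk1, Pdk1 and Vegfa no longer passed between E10 and E11, and neither they nor Pfkl passed between E11 and E12. The third probes of Pgk1 and Vegfa were detected on 0 of 24 arrays. The Bnip3 probe, for a mitophagy receptor and HIF target, ran from 4.65 to 5.69, near background. Aldoa, Ldha and Slc2a1 had 1 probe each. Pgk1, Aldoa and Ldha also have processed pseudogene copies in the mouse genome, and which copies a probe reads was not tested.

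No probe was annotated to Eno1, the broadly expressed enolase. The array carries 1 probe annotated to Eno1b, an intronless near-copy of Eno1 on chromosome 18, and whether that probe reads Eno1, Eno1b or both cannot be told from the annotation. Eno1b was named after its values were seen. It fell by 1.90 at E13 relative to E10 in p63-/- (SE 0.17, limma adjusted p = 8.57e-08) and by 1.78 in p63+/- (SE 0.17, adjusted p = 2.53e-07). Its p63-/- minus p63+/- average was 0.03 (95% interval -0.15 to 0.21, adjusted p = 0.944).

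The other genes of the pathway did not move as a block. Of 16 other glycolysis genes measured, 4 rose and 7 fell at E13 relative to E10 in each genotype, against shares of all genes of 27.4% higher and 28.5% lower in p63-/- and of 25.3% higher and 28% lower in p63+/-. Eno2, the neuronal enolase, rose by 2.61 in p63-/- (limma adjusted p = 2.87e-08) and by 2.64 in p63+/- (4.02e-08), and Eno3, the muscle enolase, fell by 2.19 (6.2e-06) and by 1.71 (9.57e-05). Pfkfb2, which makes an activator of phosphofructokinase, rose by 1.30 (adjusted p = 2.82e-07) and by 1.08 (2.6e-06). Slc16a3, a lactate exporter, fell by 1.36 (adjusted p = 0.000709) and by 1.30 (0.00111). The list's median difference was -0.35 in p63-/- and -0.14 in p63+/-.

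In the lists for pyruvate entry into mitochondria and for oxidation there, more genes fell than rose. Of 8 measured genes for pyruvate entry, 4 fell and 0 rose in p63-/-, and 4 fell and 1 rose in p63+/-, while 28.5% and 28% of all genes were called lower. Pdk3, another pyruvate dehydrogenase kinase, fell by 0.72 in p63-/- (limma adjusted p = 0.000108) and by 0.65 in p63+/- (0.000295), and Dlat, a core subunit of pyruvate dehydrogenase, fell by 0.50 (0.000823) and by 0.70 (3.78e-05). Pdk2 was the gene that rose in p63+/-, by 1.22 (adjusted p = 7.46e-05), with a p63-/- difference of 0.42 (0.0882). Of 17 citrate cycle and respiratory chain genes, 8 fell and 0 rose in each genotype, against the same 28.5% and 28% of all genes lower. Tfam, which maintains mitochondrial DNA, fell by 0.74 in p63-/- (adjusted p = 3.76e-05) and by 0.57 in p63+/- (0.000526), and Cs, citrate synthase, fell by 0.56 (2.19e-05) and by 0.49 (9.6e-05).

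Among the oxygen-sensing genes, 3 of 11 rose and 3 fell in each genotype, near the 27.4% higher and 28.5% lower of all genes in p63-/- and the 25.3% and 28% in p63+/-. Hif3a, which encodes an alpha subunit, rose by 1.23 in p63-/- (limma adjusted p = 7.34e-05) and by 1.43 in p63+/- (1.81e-05). Arnt, the shared partner, rose by 0.72 (adjusted p = 2.65e-05) and by 0.64 (0.000101). Vhl, whose protein marks HIF-alpha for degradation, rose by 0.54 (adjusted p = 0.000409) and by 0.49 (0.00106), and Hif1an, an inhibitor of HIF activity, fell by 0.68 (0.000196) and by 0.47 (0.0045). Hif1a itself, which is regulated mainly at the protein level, differed by -0.02 in p63-/- (adjusted p = 0.923) and by 0.08 in p63+/- (0.614).

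Of 25 other hypoxia response genes, 10 rose and 4 fell in p63-/-, and 11 rose and 4 fell in p63+/-. Of all genes, 27.4% were called higher and 28.5% lower in p63-/-, and 25.3% and 28% in p63+/-, so the list's called genes, 14 in p63-/- and 15 in p63+/-, were near the 55.9% and 53.3% of all genes called. Lox, which crosslinks collagen, had the largest difference of the pathway lists, 4.28 in p63-/- (limma adjusted p = 2.16e-07) and 4.30 in p63+/- (2.96e-07). Ddit4, an inhibitor of mTORC1 signalling, rose by 2.11 in p63-/- (adjusted p = 2.03e-06) and by 1.65 in p63+/- (3.25e-05), and Ndrg1 rose by 1.74 (0.000119) and by 1.96 (4.13e-05). In p63+/-, Bhlhe40 rose by 2.09 (adjusted p = 4.57e-05) and Car12 by 1.68 (8.22e-06). Tfrc, the transferrin receptor that erythroid cells use for iron, fell by 1.82 (adjusted p = 1.96e-05) and by 1.64 (6.99e-05). Of 8 genes of the Vegf family and its receptors other than Vegfa, 5 rose and 0 fell in p63-/-, against 27.4% of all genes higher, and 3 rose and 1 fell in p63+/-, against 25.3% higher. The co-receptor Nrp1 rose by 1.75 in p63-/- (adjusted p = 2.49e-05) and by 2.06 in p63+/- (5.22e-06), and Flt1 rose by 0.72 (0.0124) and by 0.78 (0.00778). Vegfd was the gene that fell in p63+/-, with a difference of -1.05 (adjusted p = 0.0113). Kdr was on the array and was not detected often enough.

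**Figure D3:**
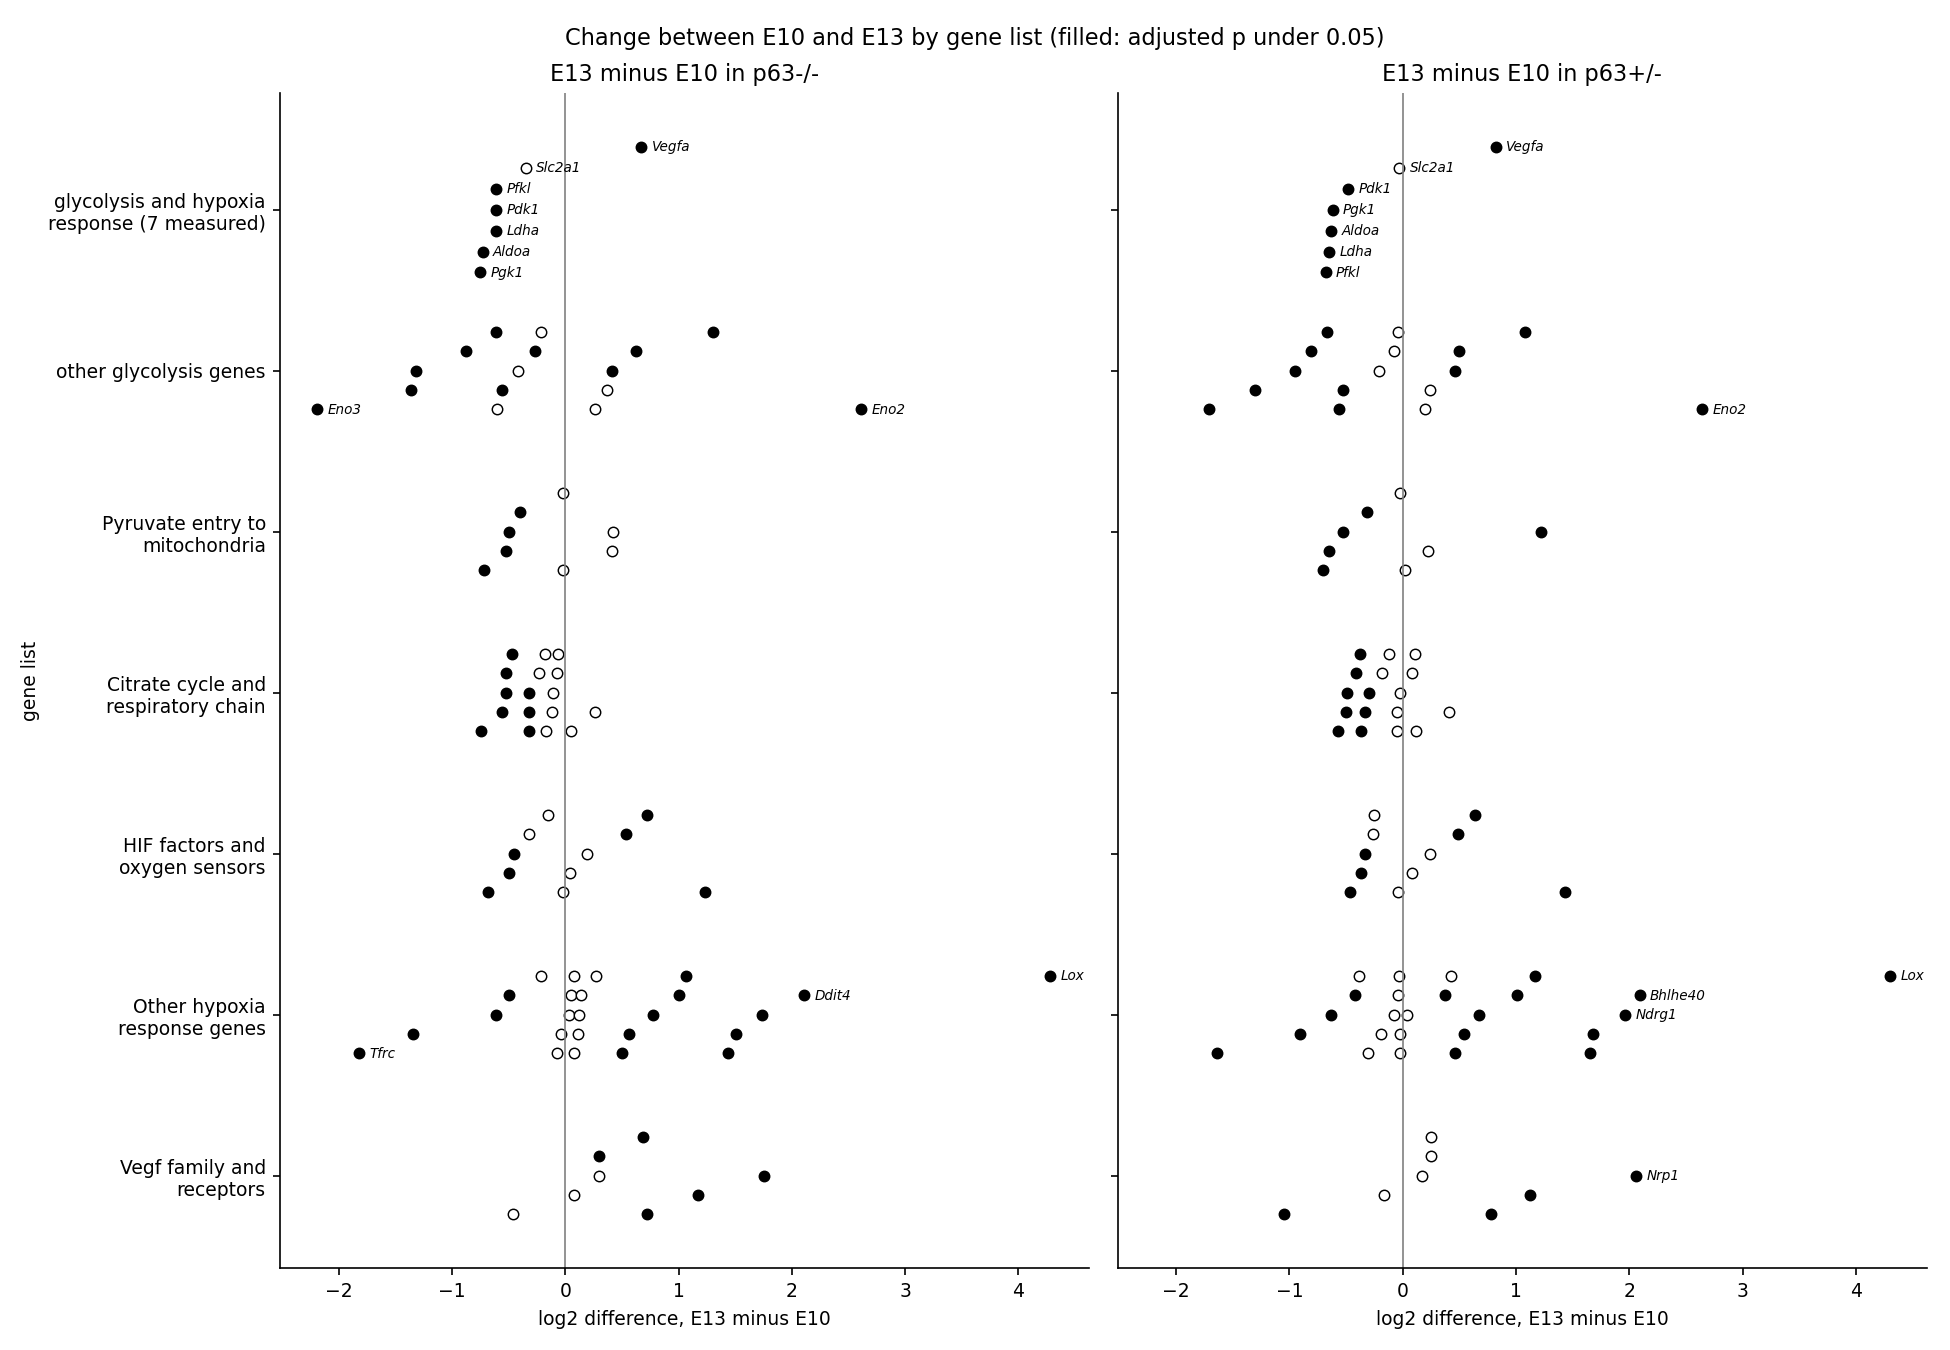
Log2 difference between E13 and E10 for every measured gene of each list, 1 point per gene, in p63-/- (left) and p63+/- (right). Filled points passed an adjusted p of 0.05, and vertical spread within a list only separates points. The 5 enzyme genes of the 7 sit between -0.75 and -0.48, opposite Vegfa, and the other hypoxia response genes reach 4.30 at Lox.

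Markers of other cell types moved with stage as well. The counts stand against 27.4% of all genes called higher and 28.5% lower in p63-/-, and 25.3% and 28% in p63+/-. All 7 measured proliferation genes fell at E13 relative to E10 in both genotypes, and the mean level of the list ran from 11.30 to 11.60 over the 6 arrays of E10, 11.34 to 11.41 at E11, 10.95 to 11.28 at E12 and 10.37 to 10.73 at E13. Of 9 erythroid genes 7 fell in each genotype, with list means of 12.22 to 13.40 at E10, 12.73 to 13.23 at E11, 12.05 to 12.60 at E12 and 10.50 to 10.99 at E13. All 10 skeletal muscle genes rose, with list means of 5.92 to 6.45 at E10 and 11.64 to 12.94 at E13. Of 10 endothelial genes, 10 rose in p63-/- and 9 in p63+/-, and of 9 macrophage genes, 7 rose in p63-/- and 9 in p63+/-. Of 9 epithelial genes, 6 fell in each genotype, with 1 higher in p63-/- and 2 in p63+/-. Of 12 yolk sac endoderm genes, 12 fell in p63-/-, whose E10 group holds the array carrying them, and 1 in p63+/-. Other lists moved less or both ways. The 8 jaw mesenchyme genes had 2 higher and 1 lower in p63-/-, and 1 higher and 3 lower in p63+/-. The 9 cartilage genes had 2 higher and 1 lower in p63-/-, and 3 higher and 3 lower in p63+/-. The 7 neuron genes had 2 higher and 0 lower in each genotype. The part of these cell types in the fall of the enzyme genes and the rise of Vegfa was not tested.

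Genotype gave no call among the 7 genes. At E10, 0 of 7 passed an adjusted p of 0.05 in limma, against 0.795% of all genes, and the same count of 0 held at E11 (0.512%), E12 (0.299%), E13 (0.307%) and on the average over 4 stages (2.35%). At an unadjusted p of 0.05, 0 of 7 passed at E10 (14% of all genes), E11 (5.07%) and E13 (2.7%), and 1 of 7 at E12 (3.06%) and on the average (10.2%). The test of whether the genotype difference varied with stage called 0 of 7 genes, against 0.0158% of all genes, with adjusted p-values of 1. At an unadjusted p of 0.05 it called 0 of 7, against 3.36%. The median genotype difference over the 7 genes was 0.04 at E10, 0.06 at E11, 0.17 at E12, -0.02 at E13 and 0.08 on the average, against -0.01 over all genes on the average. Trp63 itself was called at E10, E11 and E13 but not at E12 (-1.08, limma adjusted p = 0.0655). A test at a single stage can thus miss a difference of that size.

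Slc2a1 had the widest genotype difference of the 7. Over the 4 stages it averaged 12.55 ± 0.43 in p63-/- and 12.17 ± 0.18 in p63+/- (SD over 12 arrays each), an average difference of 0.38 (SE 0.13, 95% interval 0.11 to 0.65, limma adjusted p = 0.211). It was the 1 gene of the 7 past an unadjusted p of 0.05 on the average. The groups did not overlap at E10, where 18.2% of all genes separated. Of the 12 p63-/- arrays, 8 lay above every p63+/- array of their stage. By stage the differences were 0.54 at E10 (adjusted p = 0.358), 0.20 at E11, 0.54 at E12 and 0.22 at E13 (adjusted p = 1 at these 3 stages). Without E12 p63-/- replicate 2 the E12 difference was 0.09, and without E10 p63-/- replicate 3 the E10 difference was 0.31. Without both arrays the average difference was 0.21 (adjusted p = 0.123).

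Aldoa and Pfkl had groups that did not overlap at E12, where 6.95% of all genes separated, the p63-/- arrays lying higher. Their E12 differences were 0.28 for Aldoa (SE 0.10, 95% interval 0.06 to 0.49, limma adjusted p = 0.928) and 0.21 for Pfkl (-0.01 to 0.43, adjusted p = 1), and Aldoa was the 1 gene past an unadjusted p of 0.05 at E12. E12 p63-/- replicate 3 was the highest of the 6 arrays for 5 of the 7 genes, and without it the values were 0.18 for Aldoa and 0.15 for Pfkl. E11 p63-/- replicate 2 was likewise highest of its stage for 5 genes.

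For the remaining genes the average intervals bound the difference of the brightest probe only. They ran from -0.12 to 0.12 for Pgk1, -0.03 to 0.19 for Ldha, -0.15 to 0.18 for Pdk1, -0.12 to 0.13 for Vegfa, -0.02 to 0.20 for Pfkl and -0.01 to 0.21 for Aldoa. The second Pgk1 probe had an average difference of 0.40 (SE 0.10, limma adjusted p = 0.0584), while its brightest probe had -0.00, so the 2 probes disagree. For Pdk1, the dim second probe had -0.28 (SE 0.11, limma adjusted p = 0.356), against 0.01 for the brightest.

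**Figure D4:**
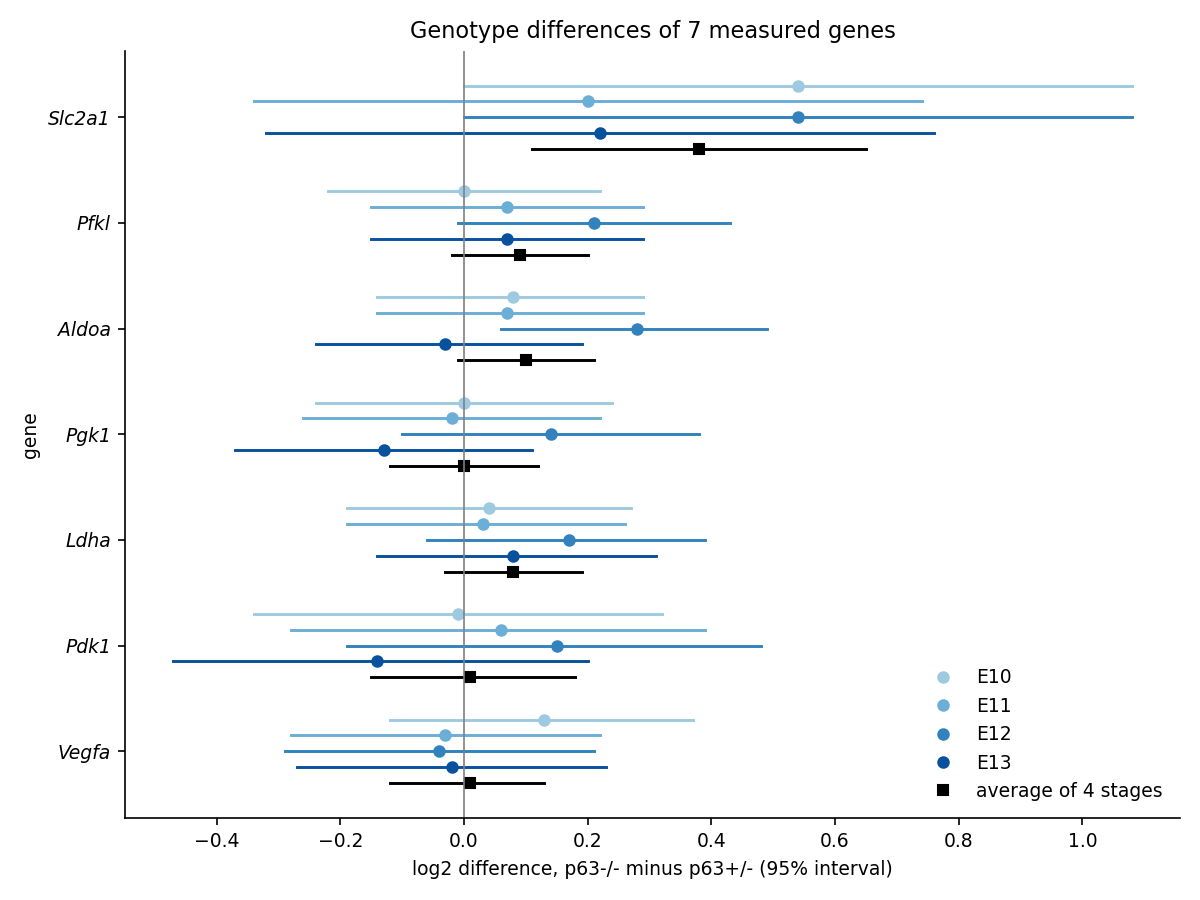
Log2 difference, p63-/- minus p63+/-, of the 7 measured genes at each stage (circles, darker with stage) and on the average of 4 stages (black squares), with 95% intervals. Slc2a1 lies highest, with an average of 0.38, and none of the differences passed after adjustment.

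In the related lists, a second glucose transporter did differ by genotype. Slc2a3 encodes GLUT3, the high-affinity transporter known from neurons, placenta and early embryos. It was the 1 of 16 other glycolysis genes called on the average over stages, against 2.35% of all genes. At E10, Slc2a3 read 13.26, 13.36 and 13.97 in p63-/-, against 12.53, 12.52 and 12.35 in p63+/-. At E11, Slc2a3 read 12.71, 12.95 and 12.48 in p63-/-, against 11.82, 12.05 and 11.72 in p63+/-. The genotypes did not overlap at either stage. At E12, Slc2a3 read 12.33, 13.21 and 12.41 in p63-/-, against 11.83, 11.52 and 11.50 in p63+/-. At E13, Slc2a3 read 12.21, 12.11 and 12.30 in p63-/-, against 11.27, 11.67 and 11.60 in p63+/-. All 12 p63-/- arrays lay above every p63+/- array of their stage.

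Slc2a3 rose by 0.91 on the average over stages (SE 0.10, 1.88-fold, 95% interval 0.70 to 1.13, limma adjusted p = 1.41e-05). By stage it rose by 1.07 at E10 (adjusted p = 0.013) and by 1.03 at E12 (0.0319), and differed by 0.85 at E11 (0.0879) and by 0.70 at E13 (0.441). The variation of this difference with stage did not pass (limma adjusted p = 1). The arrays that stood apart were the highest p63-/- arrays of E10 and E12 for Slc2a3, and without both of them the average was 0.79 (adjusted p = 1.05e-06). Slc2a3 also fell with stage, by 1.32 at E13 relative to E10 in p63-/- (adjusted p = 2.74e-05) and by 0.95 in p63+/- (0.000732).

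**Figure D5:**
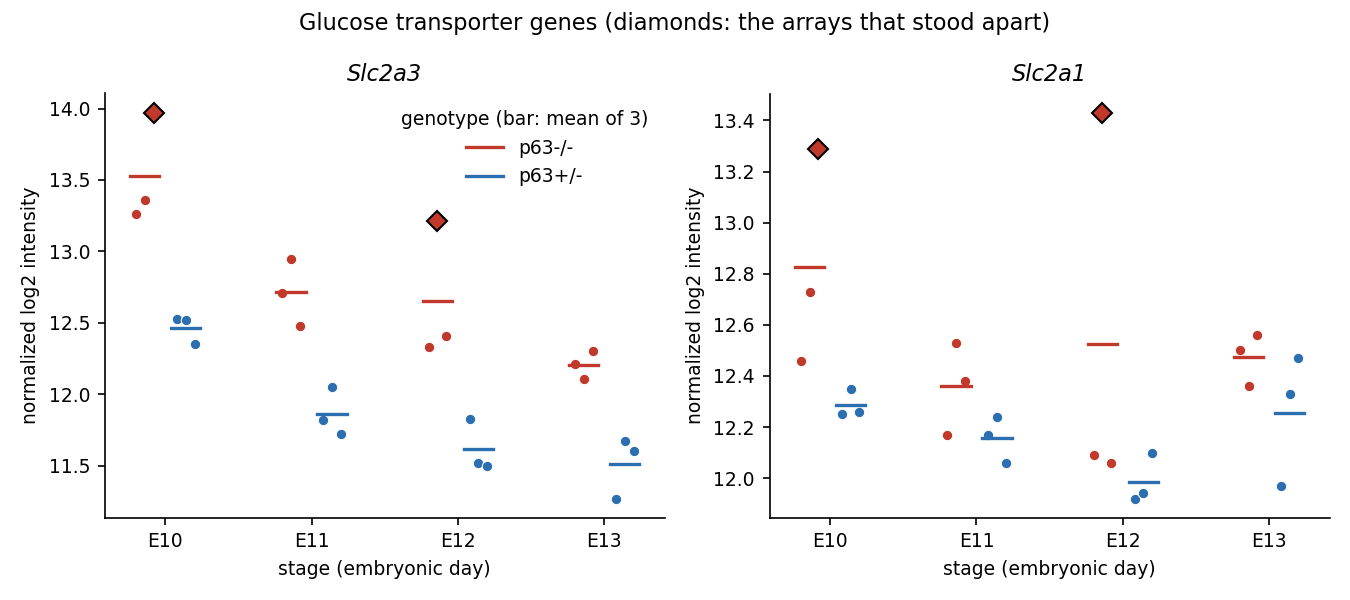
Normalized log2 intensity of Slc2a3 (left) and Slc2a1 (right) on each array by stage, p63-/- left of p63+/-, with bars for means of 3. Diamonds are the p63-/- arrays that stood apart. All 12 p63-/- arrays lie above the p63+/- arrays of their stage for Slc2a3, and 8 of 12 do for Slc2a1.

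In the hypoxia response list, 1 of 25 genes rose and 1 fell on the average over stages. Of all genes, 1.35% were called higher on this average and 1% lower, and 10.2% passed an unadjusted p of 0.05. Stc2, which encodes stanniocalcin, rose by 0.50 (SE 0.08, limma adjusted p = 0.000381), with a call by stage at E11 (0.90, adjusted p = 0.00542). Car12, which encodes a membrane carbonic anhydrase, fell by 0.46 (SE 0.12, adjusted p = 0.0397), a call lost under 17 of 35 alternative settings. The Stc2 average was 0.12 and the E11 difference 0.24 with the authors' values, and the E11 call was lost with only the arrays of that stage fitted (adjusted p = 0.0612). The Stc2 probe was dim, at 6.19 to 7.27 in p63-/- and 5.67 to 6.64 in p63+/-. The oxygen-sensing, pyruvate entry, Vegf family and citrate cycle lists had 0 genes called on this average in limma, with 2, 0, 0 and 0 genes at an unadjusted p of 0.05. Of the marker lists, 3 of 9 epithelial genes were higher and 3 lower in p63-/-, and the jaw mesenchyme, endothelium, erythroid, macrophage, skeletal muscle, cartilage, neuron, yolk sac endoderm, proliferation and sex lists had 0 called, with 1 gene at an unadjusted p of 0.05 in the cartilage list, 1 in the neuron list and 0 in the others. Single stages were less even than this average. At E10, 11 of 12 yolk sac endoderm genes passed an unadjusted p of 0.05 in limma, against 14% of all genes, with 0 called. Neuron list means did not overlap at E10 (7.12 to 7.71 in p63-/-, 6.80 to 7.04 in p63+/-) or at E11 (7.63 to 8.72 against 6.82 to 7.02). They overlapped at E12 and E13. The parts of the epithelial change and of these other cell types in the Slc2a3 difference were not tested.

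The 8 genes whose levels ran most like the mean standardized level of the 7 genes over the 24 arrays were Nr2f6 (Pearson r = 0.930), Dok5 (0.929), Dleu7 (0.920), Lsr (0.915), Dgkk (0.915), Hprt (0.911), 2010204K13Rik (0.910) and Mphosph6 (0.909). These correlations describe arrays that share 4 stages and slides.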

How the data were processed

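Bead intensities and detection p-values of 24 arrays were used as deposited, non-normalized, per the file headers, and a second table held the authors' processed values on a log2 scale. The submitters' processing notes list BeadStudio, lumi and RMA, whose order and versions are not given in the sources used here. The authors' values kept the rank order of the intensities on each array, with array medians of 7.92 to 7.93.

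The neqc function gave background-corrected, quantile-normalized log2 values (limma 3.58.1, R 4.3.3, offset 16, negative controls inferred from the detection p-values). A probe was kept where its detection p was below 0.05 on 3 or more of 24 arrays (24233 of 45281), and the brightest probe stood for each of 12698 genes. Probe genes came from the platform annotation, which gave 1 gene for 34885 probes, several for 18 and none for 10378. Group means were fitted with lmFit and eBayes (16 residual and 2.96 prior degrees of freedom), and p-values were adjusted by Benjamini-Hochberg over all genes, with 0.05 as threshold. On simulated data for the genotype average, 81 of 100 genes changed by 0.5 and 99 of 100 changed by 1 were called, with 8 calls among 12498 unchanged genes. The simulated noise was independent between arrays, with no litter effect. The number of arrays limits the precision.

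The members and the gene lists were chosen with earlier results of these data known. Genes named from a list are among the up to 4 with the largest called change in a comparison, or up to 2 as values where none passed. Not all of these were named, and genes outside that rule were named for their role after their values were seen. Alternatives tried were no background correction, an offset of 50, median scaling, the authors' values, no or a stricter detection filter, the mean of detected probes, only the arrays compared, array weights, the replicate number as a block, Xist as a covariate, and each array left out. Leaving out both arrays that stood apart was chosen after seeing the data. Same-numbered arrays of a stage carried neighbouring sample codes, but the labels tie no number to a litter. Of 12 such pairs, 9 correlated over 0.1 in their deviations (lowest 0.042), and in 11 the p63-/- array was closest to its own number. Since no label tied numbers to litters and not every pair passed 0.1, arrays were not treated as paired. The main p-values therefore ignore any pairing of littermates, and the fit with the replicate number as a block is given below. No 2 arrays held identical values.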

Additional observations from a re-analysis of the deposited data

How the results depend on the processing

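No alternative called any of the 7 genes between genotypes, the lowest adjusted p being 0.0706 for the Slc2a1 average with Xist as a covariate. The called stage differences kept their direction except Pdk1 at E13 relative to E10, which was 0.11 in p63-/- and 0.07 in p63+/- when its detected probes were averaged, since its dim second probe ran the other way. Averaging probes also left Pgk1 at -0.27 and no longer past the threshold at E13 relative to E10 in p63-/-, and 3 of 7 genes called between E10 and E11 and 2 between E11 and E12, where the brightest probes gave 6 and 6. Under median scaling the median of all genes was -0.20 between E10 and E11, 0.17 between E11 and E12, -0.10 between E12 and E13 and, at E13 relative to E10, -0.12 in p63-/- and -0.11 in p63+/-. Beside these shifts Slc2a1 passed between E10 and E11 (-0.62) and at E13 relative to E10 in p63-/- (-0.77), Vegfa no longer passed between E10 and E11 (0.04), and 1 gene instead of 2 passed between E12 and E13, Aldoa dropping out at 0.06. The E13 minus E12 differences of Pfkl and Ldha, close to 0, were -0.15 and -0.12. With 1 array left out at a time, the number of the 7 genes called between E12 and E13 ran from 1 to 3.

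Counts over all genes moved more. The share of higher calls moved from 38.6% to 51.8% at E10 with no background correction, and at E12, where it was 42.1%, to 31.4% with no background correction and 22.2% with the authors' values. With only the arrays compared it was 23.1% at E11 (49.2% otherwise) and 12.5% at E12. Fitting only the arrays compared gave 26 at E10, 26 at E11 and 8 at E12, against 101, 65 and 38. Array weights gave 295, 119, 62 and 273 at E10, E11, E12 and E13, where 39 genes passed at E13, and 600 on the average (298) and 67 for the variation with stage (2). The authors' values gave 35 at E11. The variation with stage gave 4 with an offset of 50, 4 with median scaling and 1 with no detection filter. Median scaling gave 5551 genes between E10 and E11, against 2049. Leaving out arrays gave 51 to 430 genes at E10, the most without p63-/- replicate 1 and the fewest without p63+/- replicate 3, 28 to 107 at E11, the fewest without p63-/- replicate 2, 23 to 49 at E12 and 23 to 55 at E13, the fewest without p63+/- replicate 2 at both, 1 to 9 for the variation with stage, the most without E12 p63+/- replicate 3, and 1224 to 2170 between E10 and E11, the fewest without E11 p63+/- replicate 3.

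Same-numbered arrays of a stage correlated at 0.042 to 0.628 in their deviations over 12 pairs, 9 of them over 0.1. In 11 of 12 a p63-/- array was closest to the p63+/- array of its own number. The sample codes of same-numbered arrays are neighbours as well, but the labels name no litter for a number. With the replicate block, 205 genes passed at E10, 384 on the average over stages, 1 for the variation with stage and 1219 between E10 and E11. Of the 7 genes, 4 passed between E10 and E11 with the block, without Pdk1 and Vegfa, and 5 between E11 and E12, without Vegfa, and the counts at E13 relative to E10 were 6 in each genotype.

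Slc2a3 and Stc2 passed on the average over stages under all 35 alternatives, with highest adjusted p-values of 0.000572 and 0.00373 in limma, and Car12 was lost in 17 of 35 (up to 0.0862). The Stc2 average ran from 0.12, with the authors' values, to 0.54. At E11, Stc2 ran from 0.24 to 0.98 and lost its call in 1 of 36 alternatives, with only the arrays compared (adjusted p = 0.0612). At single stages Slc2a3 was lost in 3 of 36 alternatives at E10 and in 7 of 36 at E12. Signal near background limits Bnip3, Stc2 and the second probes of Pdk1, Pfkl and Pgk1.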
